A study of Mus musculus with 2 samples.

Results

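Axon guidance genes encode secreted or membrane-bound cues and the receptors that read them. The set described here held every probe on the array whose gene symbol in the platform annotation belongs to the semaphorins (Sema), plexins (Plxn), neuropilins (Nrp1 and Nrp2), Eph receptors (Epha and Ephb), ephrins (Efna and Efnb), Robo receptors, Slits, Unc5 genes, netrins (Ntn) or teneurins (Tenm). The rule used symbols and no measured value, although earlier results of these data were known when it was set. The set comprised 106 of 25697 probes and 70 of 16593 genes. The pattern for Unc5 also took in Unc50 and Unc5cl, which are not netrin receptors, and that for netrins took in the netrin-G genes Ntng1 and Ntng2.

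RNA was compared between mouse embryonic fibroblasts of a C57BL background that lacked p53 (p53-/-, the comparison group, called the p53-null line) and fibroblasts that lacked both p53 and the maintenance DNA methyltransferase Dnmt1, written Dnmt1-/- (p53-/-) and called the double-null line. Loss of p53 was thus shared by both groups. Each genotype had 1 deposited column of signals, called its array here, so no difference has a replicate check and no p-value is given. Most signals (99.98% for p53-/- and 89.31% for Dnmt1-/- (p53-/-)) became whole at 4 decimals when multiplied by 4, against 28.09% and 25.27% as deposited, which is how a mean of 4 values would look. The labels do not settle whether a column is 1 array or such a mean, and no spread behind it was given. The labels do not say whether a sample was a clone or a pool, nor how many embryos it came from.

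Guidance families were first studied in the growing nervous system, where a growth cone turns away from or towards a cue, and they also act in connective tissue, vessels and other organs. Slits bind Robo receptors, netrins bind Dcc and Unc5 receptors, semaphorins bind plexins with or without a neuropilin, and ephrins on one cell bind Eph receptors on its neighbour. Most of these pairs act on the actin skeleton through small GTPases. Teneurins are large membrane proteins that join cells by binding each other or latrophilins.

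Signals were normalized to a log2 scale and a probe was counted as detected on an array at a detection p-value under 0.01. Of the 70 genes, 28 (40.0%) were detected on at least 1 array, against 46.6% of all genes, and 42 were detected on neither. Among the 28, 17 were detected on both arrays, 8 on the p53-null array alone and 3 on the double-null array alone, where the same counts over all 7727 detected genes were 6850, 510 and 367. In the double-null line 9 of the 28 were lower by 2-fold (1 log2) or more, which is 32.1% of those detected, where 4.59% of all 7727 detected genes were lower by this rule. The 9 were Tenm3, Slit2, Epha1, Unc5c, Efna4, Epha3, Robo1, Efna5 and Ntn3. By the same rule 1 gene was higher, Sema7a (3.57%, against 5.55% of all detected genes), and 18 lay within 2-fold.

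A gene detected on 1 array alone passes the detection filter through the array where it is high, so these counts describe the 28 genes and not all 70. For such genes only a limit of the fold is known and "at least" stands before it. The limit sets the bright array against the dim probe's level or the lowest level that counted as detected there (5.57 log2 for the p53-null array, 5.66 log2 for the double-null array), whichever was greater. It holds only within the normalization used, and for Tenm3, Epha1, Efna4 and Ntn3 it equals the measured fold. The double-null detection p-values of these genes (0.023, 0.021, 0.018 and 0.025) lay between 0.01 and 0.05, so their lack of detection depends on the threshold. Without background correction these genes differed less, by -1.85, -1.28, -0.60 and -0.41 log2, and with the authors' processed values they differed more. With these limits in place of the measured differences, the same 9 genes were lower and the same gene higher, while 3.71% of all detected genes were lower and 4.50% higher. Of the 17 genes detected on both arrays, 4 were lower (23.5%), namely Slit2, Robo1, Unc5c and Efna5, and 0 higher, against 2.60% lower and 2.88% higher among all 6850 genes detected on both. The median difference over the 28 detected genes was -0.31 log2 and over the 17 it was -0.16 log2, beside -0.04 and -0.03 log2 over all genes of the same kind. Over all 70 genes, dim ones included, it was -0.011 log2, close to the -0.007 log2 over all 16593 genes. The 42 undetected guidance genes ranged from -0.73 (Ephb6) to 0.36 log2 (Epha4). In RNA from a whole culture, fewer cells that express a gene and less RNA per cell cannot be told apart.

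**Figure D1:**
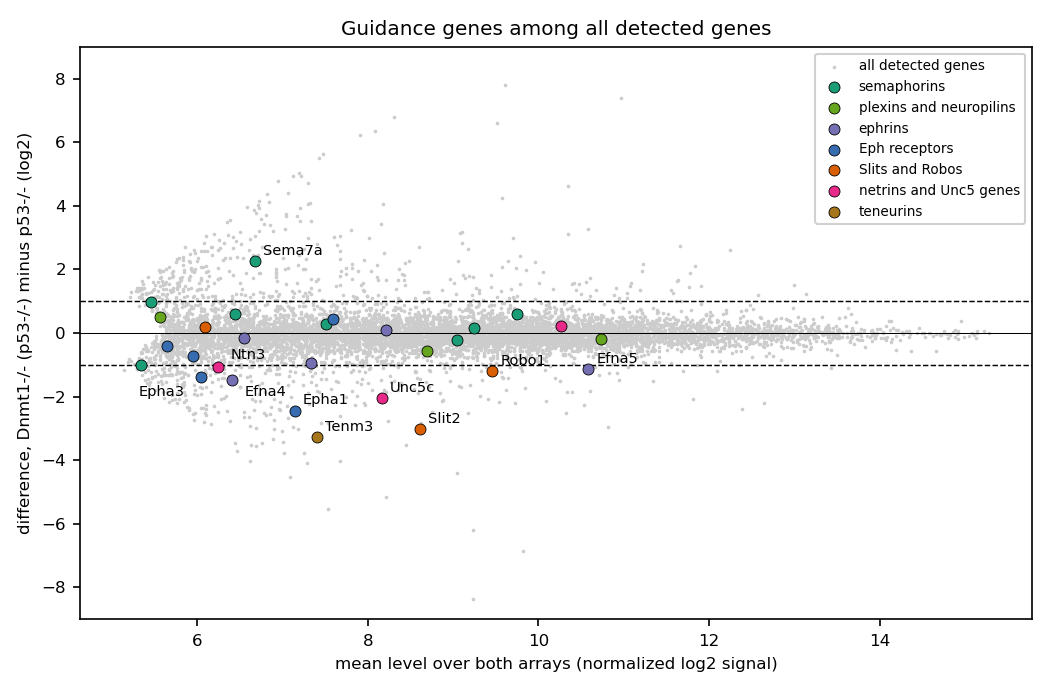
Mean level of each gene over both arrays (horizontal axis, normalized log2 signal) against its difference, Dnmt1-/- (p53-/-) minus p53-/- (vertical axis, log2), with 1 deposited signal per genotype. Grey points are the 7727 detected genes, coloured points the 28 detected guidance genes by family, and dashed lines mark 2-fold. The 9 named points at or below the lower line include Tenm3 at -3.28 and Slit2 at -3.02, and Sema7a is the 1 guidance gene above the upper line, at 2.26.

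The RefSeq promoter sequences of the 5 genes past 4-fold are printed here because the double-null line lacks the enzyme that maintains methylation at CG dinucleotides, and the sequences show how differently these genes are supplied with CG. Each is the 250 bases before the gene's annotated start in GRCm38.p6, read on the strand of the gene, with every CG in capitals. The arrays measured RNA only, and no methylation was measured in these windows.
Tenm3 (chr8:48674691-48674940, minus strand): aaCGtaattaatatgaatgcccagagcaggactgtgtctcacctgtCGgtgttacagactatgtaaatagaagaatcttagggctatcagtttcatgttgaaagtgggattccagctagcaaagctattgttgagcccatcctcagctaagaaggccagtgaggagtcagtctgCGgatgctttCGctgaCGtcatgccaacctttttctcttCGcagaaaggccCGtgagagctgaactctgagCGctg
Slit2 (chr5:47982905-47983154, plus strand): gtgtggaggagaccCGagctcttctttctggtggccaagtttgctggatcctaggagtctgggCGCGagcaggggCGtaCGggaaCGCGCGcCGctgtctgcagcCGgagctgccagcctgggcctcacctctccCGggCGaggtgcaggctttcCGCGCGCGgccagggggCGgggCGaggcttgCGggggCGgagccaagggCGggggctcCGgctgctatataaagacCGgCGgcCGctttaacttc
Epha1 (chr6:42373269-42373518, minus strand): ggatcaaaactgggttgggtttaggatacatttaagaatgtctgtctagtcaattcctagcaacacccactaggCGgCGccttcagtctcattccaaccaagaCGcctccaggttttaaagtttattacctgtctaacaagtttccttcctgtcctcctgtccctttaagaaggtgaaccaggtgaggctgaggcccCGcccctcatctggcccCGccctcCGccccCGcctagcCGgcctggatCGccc
Sema7a (chr9:57939862-57940111, plus strand): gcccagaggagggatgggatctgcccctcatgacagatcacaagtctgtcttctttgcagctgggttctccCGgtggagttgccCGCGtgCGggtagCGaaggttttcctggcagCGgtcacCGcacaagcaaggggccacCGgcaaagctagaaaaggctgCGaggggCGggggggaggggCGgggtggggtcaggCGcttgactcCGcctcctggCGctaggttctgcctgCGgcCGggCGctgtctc
Unc5c (chr3:141465314-141465563, plus strand): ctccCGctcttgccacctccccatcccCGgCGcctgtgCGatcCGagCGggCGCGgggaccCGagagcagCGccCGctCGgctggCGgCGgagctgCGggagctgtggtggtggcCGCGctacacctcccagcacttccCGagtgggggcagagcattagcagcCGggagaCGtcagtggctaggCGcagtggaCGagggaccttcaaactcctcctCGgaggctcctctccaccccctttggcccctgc

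These 250 bases held 8 CG in Tenm3, 9 in Epha1, 17 in Sema7a, 23 in Unc5c and 25 in Slit2. In the full RefSeq window of 300 bases, which adds 50 bases after the start, Tenm3 had 10 CG, and 37.1% of the genes on the array with a listed promoter had as many or fewer. Slit2 had 30 CG in that window, a count that 83.3% of genes did not exceed. Counting the CG-richest window of a gene with several, the 9 lower guidance genes had a median of 16 CG (from 10 in Tenm3 to 38 in Efna5), and the 17 of the 18 genes within 2-fold that had a listed promoter a median of 23 (from 2 to 41). Over all genes on the array with a listed promoter (80.4%), undetected ones included, the median was 17 CG. Over all detected genes within 2-fold, of which 82.8% had a listed promoter, it was 23 CG. Whether lower genes in general had fewer CG was not settled, because the check is void where a promoter is listed for fewer than 80% of a class, as for the lower genes (74.9%). The medians of 16 and 23 are therefore not shown to be particular to guidance genes. The search took the letters CG, which read the same on both strands, and describes sequence only.

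The ligand Slit2 and its receptor Robo1 were both lower in the double-null line. Slit2, a secreted repellent, gave a signal of 1250.3 units on the p53-null array against 234.5 units on the double-null array, or 10.12 and 7.10 log2 after normalization. The difference of -3.02 log2 was 8.12-fold, and the scatter of differences among the 500 detected genes nearest in level (a robust SD over genes, not over replicates) was 0.37 log2. Both arrays detected the transcript, so this fold is measured and not a limit.

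Robo1, the receptor that passes the Slit signal into the cell, had 1200.1 units in the p53-null line and 551.6 units in the double-null line. Its normalized levels were 10.05 and 8.86 log2, a 2.28-fold decrease (-1.19 log2) beside a scatter of 0.37 log2. The other detected gene of these families, Slit3, lay close to background on both arrays, at 5.99 log2 in the p53-null line and 6.19 log2 in the double-null line. Slit1, Robo2 and Robo4, a Robo of endothelial cells, were detected on neither array, so the Slit and Robo RNA measured was that of Slit2, Slit3 and Robo1.

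In the netrin pathway a receptor and a ligand were lower. Unc5c, a receptor through which netrin repels growth cones, gave 722.0 units in the p53-null line and 238.5 units in the double-null line. On the log2 scale it stood at 9.19 in the p53-null line and 7.14 in the double-null line, 4.12-fold lower (-2.04 log2, scatter 0.41 log2). Its relative Unc5b, a netrin receptor known from vessels, did not follow it, with 10.15 log2 in the p53-null line and 10.38 log2 in the double-null line.

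Ntn3, a netrin, was detected in the p53-null line alone, at 235.4 units against 151.9 units. It was at least 2.12-fold lower (6.79 to 5.70 log2, scatter 0.51 log2), just past the 2-fold rule. Ntn1, the best-studied netrin, was detected on neither array, nor were Ntn4, Ntn5, Ntng1, Ntng2, Unc5a, Unc5d, Unc5cl and Unc50. Of the other netrin receptors, Dcc was not analysed here, and Neo1 (neogenin), which also binds repulsive guidance molecules, was at 10.72 log2 in the p53-null line and 11.23 log2 in the double-null line.

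Tenm3, a teneurin that directs wiring in the visual system, had the largest measured difference as reported, but Slit2 exceeded it without background correction, at an offset of 50 and with the mean of all probes. Its signal was 665.6 units on the p53-null array against 154.0 units on the double-null array, where it was not detected. The level went from 9.04 to 5.77 log2, at least 9.68-fold lower within the normalization used (scatter 0.41 log2). Without background correction the difference was -1.85 log2. A further probe of Tenm3, also detected in the p53-null line alone, was at least 2.48-fold lower. Tenm1, which is X-linked, and Tenm4 were detected on neither array.

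Among the ephrins 5 of 8 genes were detected, 2 of them lower and 3 within 2-fold. Efna5, a ligand tethered to the membrane by a lipid anchor and a classic repellent in topographic maps, was clearly detected on both arrays, with 2402.5 units in the p53-null line and 1117.8 units in the double-null line. It was 2.20-fold lower (11.15 to 10.01 log2, difference -1.14, scatter 0.32 log2). Efna4, of the same class of anchored ephrins, was detected in the p53-null line alone, at 268.1 units against 151.1 units, and was at least 2.77-fold lower (7.15 to 5.68 log2, scatter 0.49 log2).

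The transmembrane ephrin Efnb2, which marks arteries, lay just inside the rule at -0.93 log2, from 7.80 log2 in the p53-null line to 6.87 log2 in the double-null line. Efna1 differed by -0.16 log2 and the X-linked Efnb1 by 0.10 log2, each less than the scatter of genes at its level (0.47 and 0.40 log2). Efna4 lies next to Efna3 and near Efna1 in gene order on chromosome 3. The 3 neighbours therefore differed in what was measured: Efna4 was lower, Efna1 within 2-fold and Efna3 detected on neither array. Efna2 and Efnb3 were not detected either.

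Of the 13 Eph receptor genes, 5 were detected in the p53-null line and 1 of these, Epha2, also in the double-null line. Of all 7360 genes detected on the p53-null array, 6850 were also detected on the double-null array. The double-null detection p-values were 0.021 for Epha1, 0.022 for Epha7, 0.055 for Ephb4 and 0.061 for Epha3. Under a threshold of 0.05 in place of 0.01, Epha1 and Epha7 would count as detected there too. Epha1 had 459.8 units in the p53-null line and 160.6 units in the double-null line, at least 5.43-fold lower (8.37 to 5.92 log2, scatter 0.49 log2). Epha3, a receptor for ephrin-A5 found in mesenchyme, had 231.3 units against 139.8 units and was at least 2.11-fold lower (6.74 to 5.35 log2, scatter 0.59 log2). Epha7 (at least 1.58-fold lower) and Ephb4, the partner of ephrin-B2 in veins (at least 1.14-fold lower), were also detected in the p53-null line alone, and their limits fall short of 2-fold.

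Epha2, a receptor common in epithelia and in cultured cells, went the other way, from 7.37 log2 in the p53-null line to 7.81 log2 in the double-null line. This difference of 0.44 log2 was near the scatter at its level, 0.38 log2. The other 8, Epha4, Epha5, Epha6, Epha8, Epha10, Ephb1, Ephb3 and Ephb6, were detected on neither array.

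**Figure D2:**
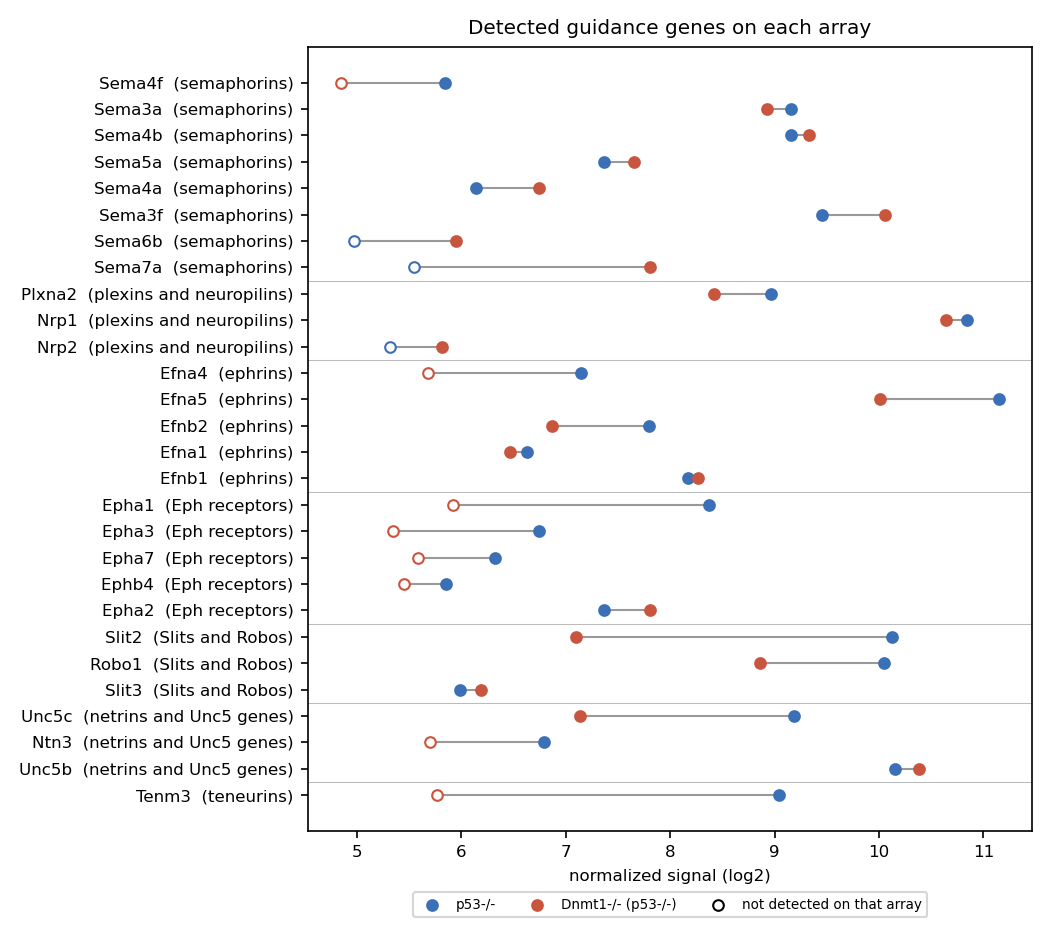
Normalized log2 signal (horizontal axis) of the 28 detected guidance genes on the p53-/- array (blue) and the Dnmt1-/- (p53-/-) array (red), 1 deposited signal each, grouped by family. Open circles mark an array on which the gene was not detected; a probe's level has no common scale with that of another probe, so only the 2 ends of a line compare. The 8 lines with an open red end belong to genes detected in the p53-null line alone, such as Tenm3, Epha1 and Ntn3.

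Of the 18 semaphorin genes 8 were detected, 1 higher, 0 lower and 7 within 2-fold, with a median difference of 0.44 log2. In 6 of these 8 the double-null signal was the higher after normalization, while 15 of the 20 other detected guidance genes had the lower signal there, as did 4167 of all 7727 detected genes. Sema6b and Sema7a were detected on the double-null array alone and Sema4f on the p53-null array alone, so their direction follows from how they passed detection. The same holds for Tenm3, Epha1, Epha3, Epha7, Ephb4, Efna4 and Ntn3 among the 15, detected on the p53-null array alone. It also holds for Nrp2, detected on the double-null array alone. Whether semaphorins differ from the other families was not tested. Sema7a, a semaphorin anchored in the membrane by lipid that in humans carries a blood group antigen and acts through integrins and plexin C1, had 168.7 units in the p53-null line, where it was not detected, and 316.8 units in the double-null line. Within the normalization used it was at least 4.74-fold higher (5.55 to 7.81 log2, scatter 0.46 log2). Its difference was 1.02 log2 without background correction and 1.68 log2 at an offset of 50. Its detection p-value on the p53-null array was 0.012, close to the threshold of 0.01.

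Sema3f, a secreted repellent, stood at 9.45 log2 in the p53-null line and 10.06 log2 in the double-null line, a difference of 0.61 log2 beside a scatter of 0.34 log2. Sema4a differed by 0.59 log2, Sema5a by 0.28 log2 and Sema4b by 0.16 log2. Sema3a, the first collapsin and the best-known repellent of the family, differed by -0.23 log2, with 710.7 units in the p53-null line and 575.2 units in the double-null line. Sema6b at 0.98 log2 and Sema4f at -0.99 log2 lay just short of the rule, but each was detected on 1 array alone, with limits of 1.31-fold and 1.13-fold.

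The receptors of semaphorins had 3 of 10 genes detected and all 3 lay within 2-fold. Nrp1, a co-receptor of Sema3a and of vascular endothelial growth factor, had 1973.7 units in the p53-null line and 1684.0 units in the double-null line (10.84 and 10.64 log2, difference -0.20). Plxna2, a plexin that signals for class 3 and class 6 semaphorins, differed by -0.55 log2, from 8.97 to 8.42 log2. Nrp2, the co-receptor of Sema3f, was near background and detected in the double-null line alone, at 5.82 log2 against 5.32 log2. The plexins Plxna1, Plxna3, Plxna4, Plxnb1, Plxnb3, Plxnc1 and Plxnd1 were detected on neither array, among them the plexin C1 receptor of Sema7a, as were Sema3b, Sema3c, Sema3d, Sema3e, Sema3g, Sema4d, Sema4g, Sema6a, Sema6c and Sema6d.

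Where a gene had several probes, the one with the highest mean level stood for it, and 13 detected guidance genes had more than 1. A further probe was detected for 7 of them, and in all 7 it differed in the same direction as the probe used. For Tenm3, Efna4, Efna5 and Epha1 that further probe was detected in the p53-null line alone, so its direction follows from the detection. Its limit was at least 2.06-fold lower for Efna4, at least 1.26-fold for Efna5 and at least 1.06-fold for Epha1. The other 2 probes of Epha1 were detected on neither array. For Sema3f, Sema5a and Nrp1 the further probe was detected on both arrays and differed by 0.58, 0.16 and -0.23 log2. Sema7a rested on 1 of its 3 probes, since the other 2, at 0.01 and 0.02 log2, lay at background on both arrays, and likewise Epha3 rested on 1 of 3. Slit2, Robo1 and Unc5c had 1 probe each and so no second reading on the array.

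**Figure D3:**
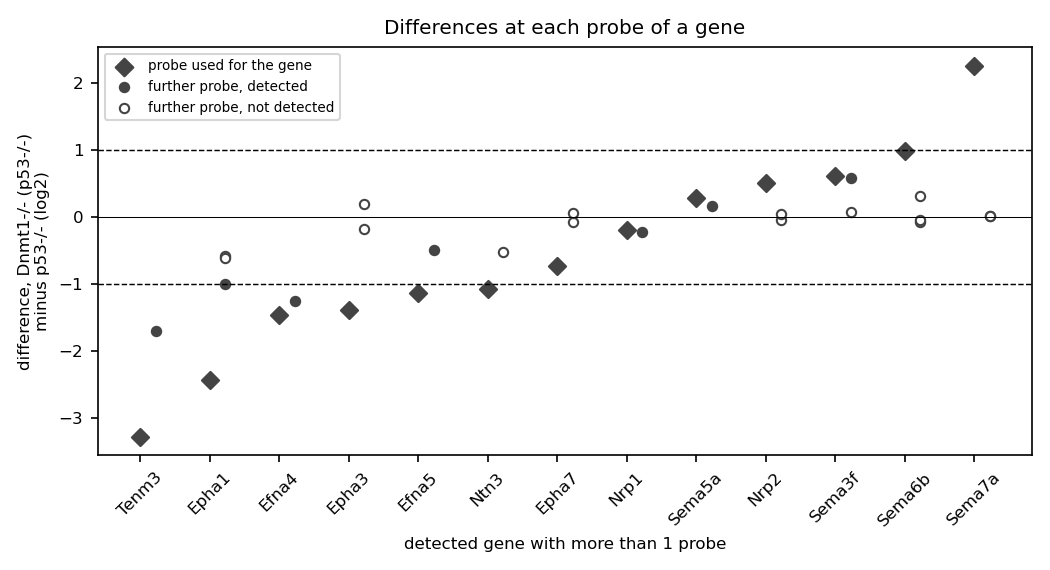
Difference, Dnmt1-/- (p53-/-) minus p53-/- (vertical axis, log2), at every probe of the 13 detected guidance genes with more than 1 probe (horizontal axis). Diamonds are the probes used, circles the further probes, open where detected on neither array, and dashed lines mark 2-fold. Tenm3 and Efna4 have both probes past the lower line, detected in the p53-null line alone, while Sema7a has 1 probe at 2.26 and 2 undetected probes near 0.

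Genes that work with the guidance receptors were read from a list of 69 partner genes, of which 57 were on the array and 32 detected. In the double-null line 6 of the 32 were lower by 2-fold or more (18.8%, against the 4.59% of all detected genes), 0 were higher and 26 lay within 2-fold, with a median difference of -0.10 log2. Flrt3, a membrane ligand of Unc5 receptors and of latrophilins, had 1186.4 units in the p53-null line and 244.3 units in the double-null line, 7.06-fold lower (10.04 to 7.22 log2, scatter 0.36 log2). Its relative Flrt2 was 2.12-fold lower (8.73 to 7.64 log2, scatter 0.40 log2), and Flrt1 was detected on neither array. The latrophilin Adgrl1, which binds teneurins and Flrt proteins, differed by -0.44 log2, and Rgma, a ligand of neogenin, by -0.86 log2.

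Inside the cell, Tiam1, an activator of the GTPase Rac that associates with ephrins and Eph receptors, was 3.74-fold lower (9.54 to 7.64 log2, scatter 0.37 log2). Rasa1, a Ras inhibitor recruited by Eph receptors, was 2.80-fold lower (11.68 to 10.20 log2, scatter 0.31 log2). Crmp1, which relays the Sema3a signal to microtubules, was not detected in the double-null line and was lower there by at least 2.54-fold (7.0 to 5.58 log2, scatter 0.49 log2), whereas its relatives Dpysl2 (-0.13 log2) and Dpysl3 (-0.51 log2) lay within 2-fold. Vangl2, of the planar polarity pathway, was 2.08-fold lower (8.46 to 7.40 log2, scatter 0.38 log2). Flrt2, Flrt3, Tiam1, Rasa1 and Vangl2 were detected on both arrays. Without background correction, and again at an offset of 50, the lower partner genes were 3, with Crmp1, Flrt2 and Vangl2 inside 2-fold.

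Of 13 GTPases, kinases and actin regulators on the array 7 were detected and all 7 lay within 2-fold, as did 89.9% of all detected genes. Among them were Rac1 (0.16 log2), Cdc42 (-0.19 log2), Rras (0.01 log2), the kinase gene Limk1 (0.27 log2) and the actin-severing gene Cfl1 (0.24 log2). The other 6 were not detected. Here and for the guidance genes, a probe without detection does not show that the RNA was absent. The receptor gene Ryk (0.05 log2) and the chemokine gene Cxcl12 (-0.01 log2), which also guides migrating cells, were at nearly the same level on both arrays.

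**Figure D4:**
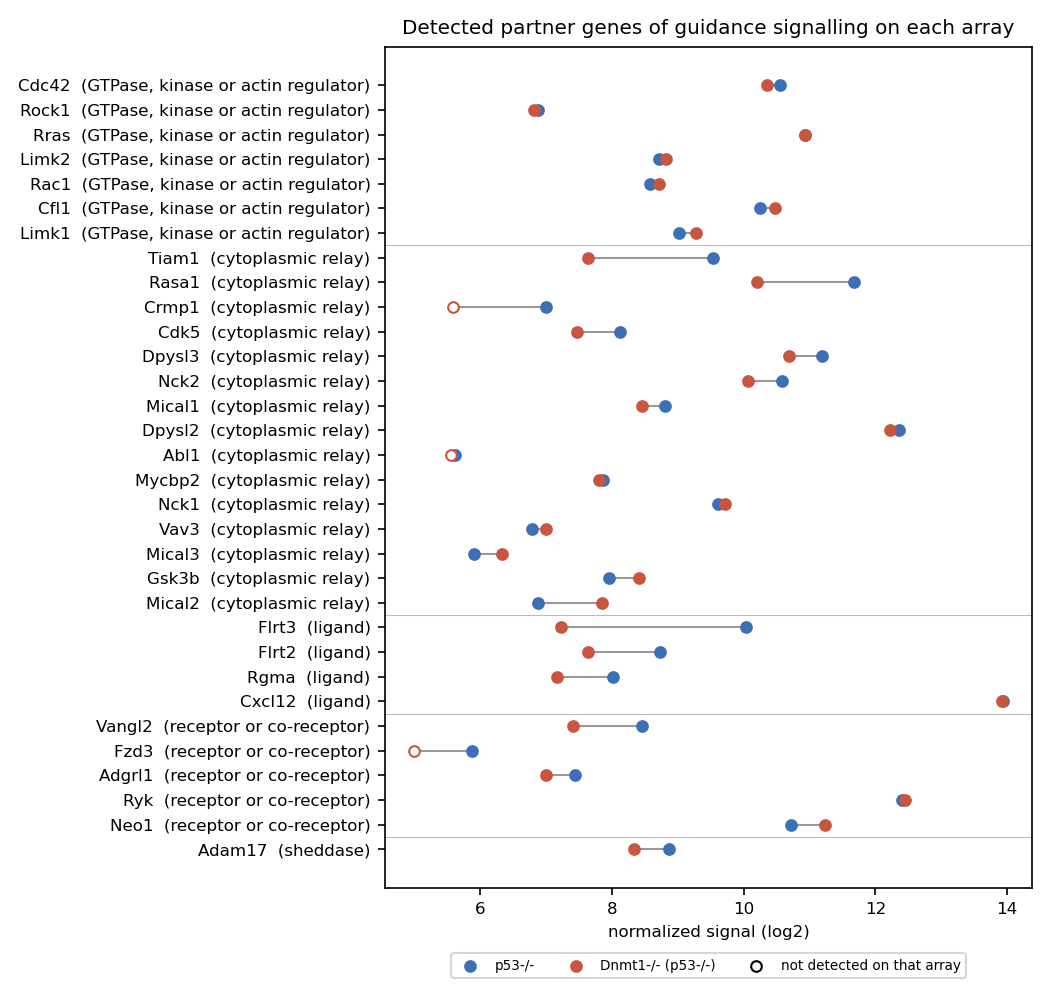
Normalized log2 signal (horizontal axis) of the 32 detected partner genes on the p53-/- array (blue) and the Dnmt1-/- (p53-/-) array (red), 1 deposited signal each, grouped by role, with open circles for an array without detection. The long lines belong to Flrt3 (-2.82 log2), Tiam1 (-1.90 log2), Rasa1 (-1.48 log2) and Crmp1 (-1.43 log2), and the 7 GTPases, kinases and actin regulators at the top have short ones.

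Several differences between the lines stood beside these values. Dnmt1 was 4.54-fold lower in the double-null line (10.63 to 8.44 log2) and still detected there, and whether its probe lies in the disrupted part was not determined. The Y-linked gene Eif2s3y was at least 24.9-fold lower (10.30 to 4.76 log2), and Kdm5d, also Y-linked and named after its value was seen, at least 3.0-fold. A difference in Y-linked RNA and the loss of Dnmt1 cannot be told apart in 2 samples.

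As to the labelled cell type, 8 of 11 fibroblast markers were detected, on both arrays, with summed signals of 47280 and 41290 units for the list. All 8 lay within 2-fold, as did 89.9% of all detected genes. Their median difference was -0.49 log2, and they ranged from -0.94 to 0.70 log2. The brightest 3 were Col1a1 (-0.51 log2), P4hb (-0.08 log2) and Vim (-0.03 log2), and Fap, Lum and Postn were undetected. Summed signals, here and for the lists below, are not normalized and include the background of undetected probes. The median signal of all probes was 150.5 units in the p53-null line and 129.8 units in the double-null line. The sums therefore do not compare the lines. Of 16 neural and glial markers 5 were detected, and the list's summed signal was 3173 units in the p53-null line and 2326 units in the double-null line. Of these 5, 2 were lower and 1 higher, where 4.59% and 5.55% of all detected genes were, and 2 lay within 2-fold. The neuronal gene Map2 was 3.03-fold lower, the growth cone gene Gap43 at least 2.46-fold lower and Nefm at least 1.79-fold higher. Gap43 was detected on the p53-null array alone and Nefm on the double-null array alone, so their direction follows from the detection. Stmn2 differed by -0.87 log2, while Tubb3, Dcx, Rbfox3, Snap25, Syp, Gfap and Olig2 were detected on neither array. Of 11 skeletal muscle markers 7 were detected and 6 were higher, where 5.55% of all detected genes were, with summed signals of 2482 and 6124 units. Actc1 lay within 2-fold (0.46 log2), and Des, Ckm, Myf5 and Myf6 were detected on neither array. Tnnt1 was 10.8-fold and Acta1 8.79-fold higher, while Myod1 (at least 1.70-fold) and Myog (at least 1.65-fold) had limits short of 2-fold. Myod1, Myog and Tnnc2 (at least 4.46-fold higher) were detected on the double-null array alone, so their direction follows from the detection.

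Endothelial markers had 2 of 9 detected, Flt1 (-0.78 log2) and Egfl7 (-0.51 log2), with summed signals of 2566 and 1854 units and with Pecam1, Cdh5, Kdr and Tek undetected. Haematopoietic markers had 2 of 8 detected, Cd14 (2.23-fold higher) and Cd3e (0.29 log2), with summed signals of 1214 and 1205 units and with Ptprc undetected. The part of these markers' cell types in the guidance gene differences was not tested.

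Across 10 other ways of processing the same signals, Slit2, Robo1 and Unc5c were lower by 2-fold or more in all 10, and Tenm3 and Epha1 in all 9 that could include them. Settings that altered only the detection rule, or used limits, left the values of these genes as reported. The mean of all probes did the same for Slit2, Robo1 and Unc5c, which had 1 probe each. Without background correction Robo1 passed the rule narrowly, at -1.003 log2, and so did Sema7a, at 1.02 log2. Epha3 and Ntn3 fell inside 2-fold under 3 settings each, and Efna4, Efna5 and Sema7a under 1 each. No guidance gene past 2-fold changed direction under any of these settings. All of them reused the same 2 columns of signals and several could not alter a direction, so this is no further check of it.

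**Figure D5:**
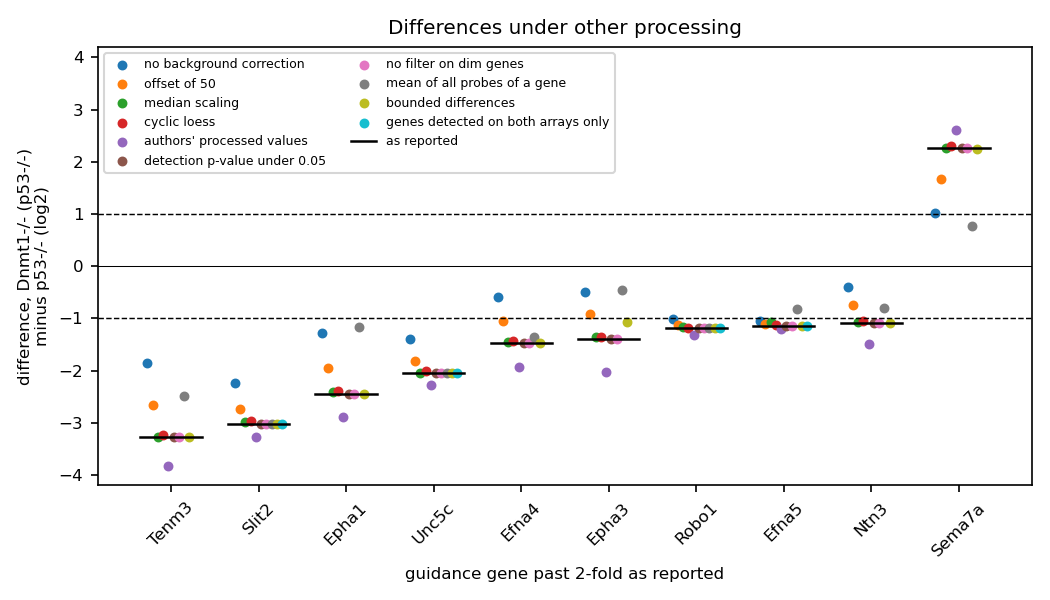
Difference, Dnmt1-/- (p53-/-) minus p53-/- (vertical axis, log2), of the 10 guidance genes past 2-fold (horizontal axis) as reported (black bars) and under each of 10 other settings (coloured points), with dashed lines at 2-fold. Slit2 stays between -3.27 and -2.23 and Tenm3 between -3.83 and -1.85, while points of Ntn3 and Epha3 lie above the lower dashed line.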

How the data were processed

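Total RNA was amplified, labelled with biotin and hybridised to 1-colour Illumina bead arrays, with 1 column of signals deposited per genotype. The deposited probe intensity values were linear and, per the file headers, not normalized, with a detection p-value deposited beside each. The authors also deposited an intensity table of their own processing. Against the unprocessed signals its values kept the rank order (Spearman rho across probes 0.99998 and 0.99997) and had column means of 507, medians of 14.2 and 13.8, and 26.7% and 26.4% of values below 0. The sources used here name neither the exact method nor the scanner software.

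Background was corrected with neqc of limma 3.58.1 in R 4.3.3 (normexp with parameters inferred from the detection p-values, offset of 16), followed by quantile normalization and log2. The script was tested on simulated data. Detection p-values came in steps of 1 in 3192 on both arrays, and if they are means of several measurements the inferred background is approximate. Of 25697 probes 23978 had 1 gene symbol, in a platform annotation whose Entrez identifiers matched a GRCm38.p6 RefSeq table for 23962, and the brightest probe over both arrays stood for a gene. The median signal was 150.5 units for the p53-null line and 129.8 units for the double-null line, with 10302 and 10048 probes detected. A gene was counted as lower or higher at 2-fold or more if detected (detection p-value under 0.01) on at least 1 array. With 1 column per group there was no test, and precision is limited by the number of arrays.

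Every guidance gene detected was open to be named, as was every list gene past 2-fold or bright within its list. Guidance genes and lists were chosen with earlier results of these data known. List symbols absent from the array were matched through older names (3 genes, among them Adgrl1). Promoters came from RefSeq, for 61 of the 70 genes. Python 3.11.15 with pandas 2.3.3 and matplotlib 3.10.9 did the remaining steps.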

Additional observations from a re-analysis of the deposited data

How the results depend on the processing

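Each count and each guidance gene past 2-fold was recomputed under 10 other settings. The restriction to genes detected on both arrays was chosen after seeing the data. The number of guidance genes lower by 2-fold or more ran from 6 (without background correction, or with the mean of all probes) to 12 (with the authors' processed values, which added Efnb2, Epha7 and Sema4f), and was 4 of 17 among genes detected on both arrays. The number higher became 2, with Sema6b, under median scaling, cyclic loess and the authors' processed values. It became 0 with the mean of all probes and among genes detected on both arrays, where Sema7a drops out by construction. The number of partner genes lower became 3 when background correction was left out and also 3 at an offset of 50, Flrt3, Tiam1 and Rasa1 in both, and the cause was not tested. It was 4 with the mean of all probes and 8 with the authors' processed values. The share of all detected genes that were lower is given above for the reported setting, the limits and the genes detected on both arrays. For the other settings it is not given, so their counts cannot be set against the whole array. The median difference of the detected guidance genes stayed below 0 throughout, from -0.52 log2 with the authors' processed values to -0.011 log2 when undetected genes were kept. The latter was close to the median over all 16593 genes, -0.007 log2. Without background correction Efna4 (-0.60 log2), Epha3 (-0.49 log2) and Ntn3 (-0.41 log2) lay within 2-fold, and with the mean of all probes so did Efna5 (-0.81 log2), Epha3 (-0.46 log2), Ntn3 (-0.80 log2) and Sema7a (0.77 log2). An offset of 50 also brought Epha3 (-0.91 log2) and Ntn3 (-0.75 log2) inside. The authors' processed values shifted the median of all genes detected on both arrays to -0.11 log2, beside -0.032 log2 as reported. No replicate could be left out and no paired analysis was possible because each genotype had 1 column of signals. Signals near background, as for Ntn3, Epha3, Nrp2 and Slit3, are where the arrays resolve least.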

Other observations

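The 10 guidance genes past 2-fold lie on 7 chromosomes, and their neighbours in gene order are given here. For each, the nearest detected gene on either side was taken, 20 in all, and 18 of these lay within 2-fold, with a median difference of 0.04 log2. This share is near that of all detected genes (89.9%), so nothing about stretches of the genome is read from it. Beside Tenm3 stood Dctd (-0.10 log2) and, 3 array genes away, Vegfc (0.22 log2), a ligand for receptors of lymphatic vessels. Beside Slit2 stood Pacrgl (-0.12 log2) and, 3 array genes away, Med28 (0.07 log2). Unc5c had beside it the receptor gene Bmpr1b (0.31 log2) and, 3 array genes away, Rap1gds1 (-0.02 log2). Sema7a, the gene that was higher, had Ubl7 (0.20 log2) and, 6 array genes away, Pml (0.52 log2) as its nearest detected neighbours.

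The 2 exceptions were not immediate neighbours, but neither were several of the genes within 2-fold, such as Gpr108, 6 array genes from Efna5. Tcaf2, 9 array genes from Epha1, went from 8.87 log2 in the p53-null line to 6.04 log2 in the double-null line (-2.83 log2). Cxadr, the gene of an adhesion protein that serves as a receptor for coxsackieviruses and adenoviruses, lies 7 array genes from Robo1 and went from 9.94 to 8.24 log2 (-1.71 log2). Robo2, the array gene next to Robo1, was detected on neither array.

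The X chromosome held 4 of the 70 guidance genes, Efnb1, Plxna3, Plxnb3 and Tenm1. Efnb1 alone was detected, at 8.17 log2 in the p53-null line and 8.27 log2 in the double-null line. Xist, the X-linked RNA that coats an inactive X chromosome, was detected on the double-null array but not the other, at 6.44 log2 against 4.83 log2 in the p53-null line, at least 1.84-fold higher.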
